A study of Glycine max with 6 samples.

Results

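Jasmonate synthesis and signalling genes were examined in soybean (Glycine max) roots kept at pH 5.8 or pH 4.2. Members were the genes whose deposited description held, in any letter case, "lipoxygenase", "allene oxide", "12-oxophytodienoate reductase", "TIFY", "jasmonate", "jasmonic acid" or "coronatine-insensitive". This rule found 76 of the 48667 genes listed. One of these matches, Glyma.05G127500, is described as an outward-rectifying potassium channel, whose name only contains the letters of TIFY, and it was set aside. The remaining 75 genes were 50 synthesis enzymes, 17 TIFY genes and 8 genes of jasmonate modification and perception. Every lipoxygenase and every 12-oxophytodienoate reductase was classed as a synthesis enzyme, whether or not its type serves jasmonate. Seedlings had been kept for 30 days in nutrient solution at pH 5.8 (control roots) or at pH 4.2 (acid-treated roots), and RNA of the roots was sequenced. There were 3 libraries for each pH, and each was made from the roots of 2 plants pooled. No transgene or further agent is named for either treatment, and the sample titles name the genotype YC03-3 whereas the study's methods name Huachun 6. Whether replicates grew in separate vessels is not given in the sources used here, so p-values measure the spread between these libraries.

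Jasmonates are plant hormones made from linolenic acid that membrane lipids release in plastids. A 13-lipoxygenase adds oxygen to the fatty acid, allene oxide synthase (AOS) and allene oxide cyclase (AOC) turn the product into 12-oxo-phytodienoic acid (OPDA), and 12-oxophytodienoate reductase 3 (OPR3) reduces OPDA in peroxisomes before the side chain is shortened there. The conjugate of jasmonic acid with isoleucine joins the receptor COI1 to JAZ proteins of the TIFY family, which are then degraded, so that transcription factors such as MYC2 are released from repression. In Arabidopsis, JAZ genes and several synthesis genes are themselves induced by jasmonate. The hormone is best known from wounding, defence against insects and restraint of root growth.

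Expected counts summed to between 9137226 and 9358750 in a library. Levels are given as CPM (counts scaled to a common library total, with TMM normalization). On this scale 3 counts corresponded to between 0.312 CPM (control replicate 3) and 0.340 CPM (acid replicate 1). By edgeR's quasi-likelihood test, 187 of 33490 genes tested passed an adjusted p-value of 0.05 with at least a 2-fold change, which is 0.558%. The control library of replicate 2 stood apart from the other control libraries on the first principal component (11.5 against -60.1 and -103). Transcripts of 4 high affinity nitrate transporter 2 genes, typical of roots, summed to 798 to 1568 CPM in control roots and to 34.7 to 46.4 CPM in acid-treated roots. The paper lists nitrate transporters of this type as down-regulated by acidity, so their sum does not measure root tissue at pH 4.2. By contrast, 11 Casparian strip membrane protein genes summed to 30.4 to 96.0 CPM at pH 5.8 and to 78.7 to 98.5 CPM at pH 4.2. A list of 62 genes of the photosynthetic apparatus summed to 1502 to 2368 CPM in control roots and to 1791 to 2741 CPM in acid-treated roots, with 1 of them at 0 in all control libraries, and the 2 leghemoglobin genes, markers of nodules, to 193 to 326 and 289 to 343 CPM. The part of photosynthetic or nodule transcripts in the results below was not tested.

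Of the 75 jasmonate genes, 55 passed the filter on low counts, namely 36 synthesis enzymes, 14 TIFY genes and 5 genes of modification and perception. Only 1 of the 55, the OPR3 gene Glyma.13G109800, was called by edgeR, and it was higher at pH 4.2 (0.227% of all genes tested were called higher and 0.331% lower). No TIFY gene and no gene of modification and perception was called. At an unadjusted p-value under 0.05 there were 8 of 55 genes (14.5%), 3 higher and 5 lower at pH 4.2, against 11.8% of all genes tested. The 3 libraries of one pH did not overlap the 3 of the other for 6 of the 55 genes (10.9%), against 16.4% of all genes (7.17% with pH 4.2 higher and 9.25% with pH 4.2 lower), and 3 of the 6 were higher at pH 4.2. These shares of jasmonate genes lay on either side of those of all genes. DESeq2 called 3 of the 61 jasmonate genes to which it gave an adjusted p-value, against 2.77% of all such genes (1.22% higher and 1.55% lower at pH 4.2), and all 3 were synthesis enzymes, 2 of them higher. As roots were sequenced whole, fewer cells of a type and less RNA per cell cannot be told apart.

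The median log2 fold change of pH 4.2 over pH 5.8 was -0.16 for the 36 synthesis genes tested, 0.08 for the 14 TIFY genes and -0.26 for the 5 genes of modification and perception, beside -0.00 for all genes tested. Fold changes were negative for 22 synthesis genes and positive for 14, whereas they were positive for 10 TIFY genes and negative for 4. The 36 synthesis genes include 12 9S-lipoxygenases and 4 reductases other than OPR3, types that are set apart from the jasmonate route below. The median was -0.05 for these 9S-lipoxygenases and -0.21 for these reductases. Together the members took 0.341% to 0.587% of the CPM of a library.

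**Figure D1:**
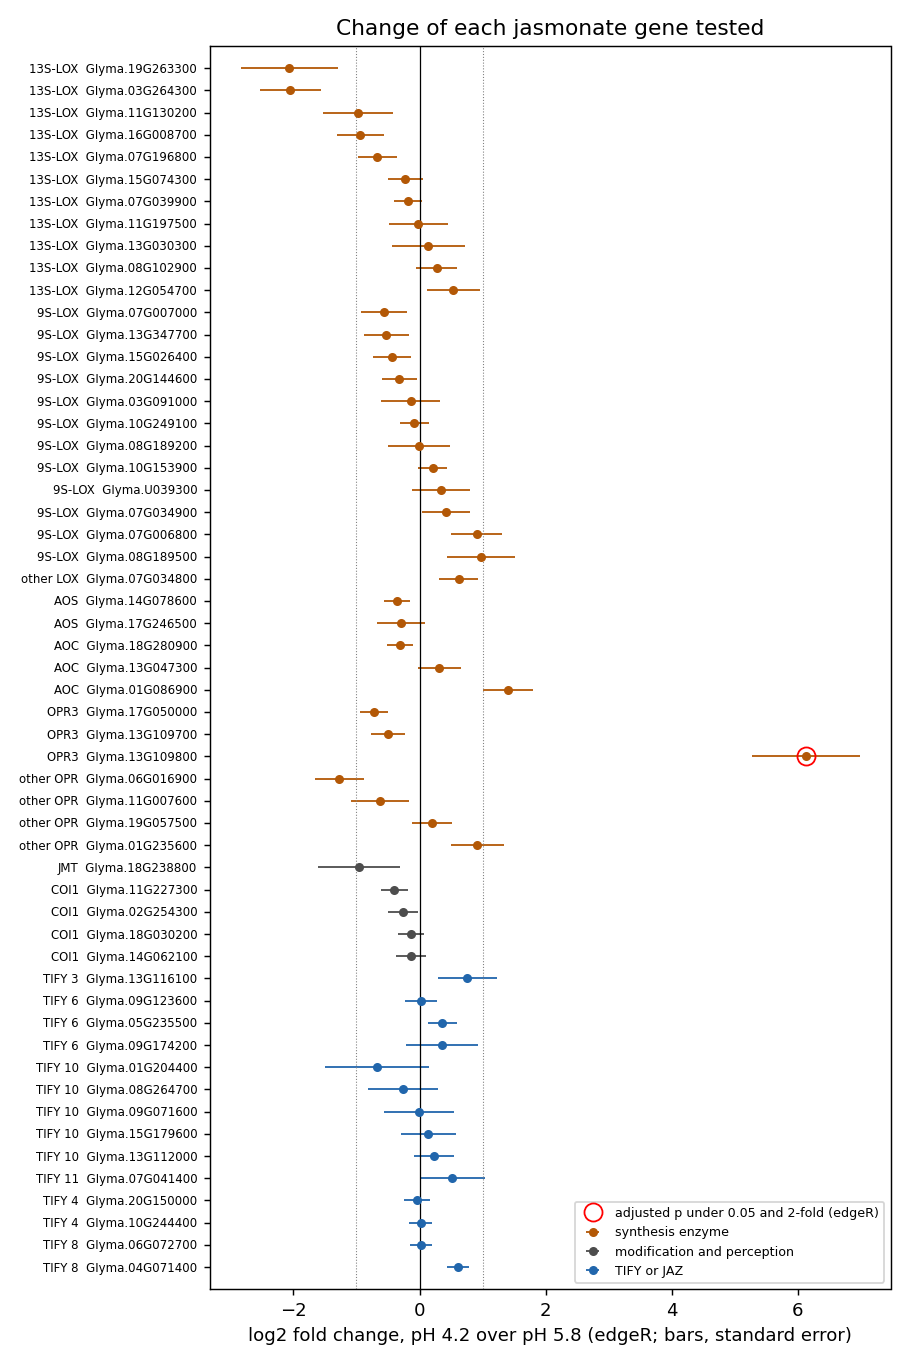
Each point is the log2 fold change of pH 4.2 over pH 5.8 for 1 of the 55 jasmonate genes tested, with its standard error from edgeR (3 libraries for each pH), grouped by enzyme step or TIFY type. The OPR3 gene Glyma.13G109800 stands at 6.13 and alone passed the test, while the 14 TIFY genes lie between -0.68 and 0.75.

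Among the 35 lipoxygenases, 16 were described as 9S-lipoxygenases, which oxygenate another carbon of the fatty acid and do not lead to jasmonate. A further 16 were described as 13S- or plastid lipoxygenases, and 3 by a number alone. Genes described as both 9S and chloroplastic were counted as 9S. The 9S enzymes held the most abundant transcripts of all members. Glyma.13G347700, described as lipoxygenase L-4 or VSP94, which is known in soybean as a vegetative storage protein, had 590 ± 139 FPKM in control roots and 403 ± 110 FPKM in acid-treated roots (SD, n = 3). Glyma.07G007000, described as a seed lipoxygenase, had 518 ± 168 and 343 ± 77.8 FPKM. These 2 genes held between 74.5% (acid replicate 1) and 87.9% (control replicate 1) of the CPM of all lipoxygenases, so a sum over lipoxygenases mainly follows them.

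Glyma.13G347700 had 1636, 1704 and 2385 CPM in the control libraries of replicates 1 to 3, and 1011, 1250 and 1712 CPM in the acid-treated ones. Glyma.07G007000 had 1632, 1016 and 1968 CPM in control roots and 838, 983 and 1291 CPM in acid-treated roots. For both genes the highest library was control replicate 3 and the lowest acid replicate 1, and the groups overlapped. Their log2 fold changes of -0.53 ± 0.35 and -0.57 ± 0.37 (SE) did not pass edgeR's test, with adjusted p-values of 0.63 and 0.61. RSEM gave both genes fractional counts in some libraries (6 and 4 of 6), so some of their reads were divided among genes, and which genes shared them was not tested.

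A further seed-type 9S gene with a locus number close to that of Glyma.07G007000, Glyma.07G006800, had the smallest p-value among 9S genes higher at pH 4.2. Its transcripts were at 36.1, 22.4 and 29.98 CPM in control roots and at 92.1, 46.0 and 27.7 CPM in acid-treated roots. Only acid replicates 1 and 2 exceeded every control library, and the log2 fold change of 0.90 ± 0.41 was not called (adjusted p = 0.44 by edgeR). Its locus neighbour moved the other way by value, but RSEM also shared reads of Glyma.07G006800 in 2 libraries. Over all 12 9S genes tested, 5 fold changes were positive and 7 negative (median -0.05), and none had an unadjusted p-value under 0.05 by edgeR or was called by DESeq2. The other 4 were near the limit of detection, with at most 1.39 CPM in any library.

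The 13S-lipoxygenases, which open the route to jasmonate, were expressed at lower levels. The most abundant, Glyma.07G039900 (13S-lipoxygenase 3-1), had 26.7 ± 5.6 FPKM in control roots and 23.1 ± 2.76 FPKM in acid-treated roots, and its log2 fold change was -0.18 ± 0.23. Of 11 genes tested, 8 fold changes were negative and 3 positive, with a median of -0.22. At an unadjusted p-value under 0.05 there were 3 genes, all lower at pH 4.2 (7.61% of all genes tested were lower at this p-value). They were Glyma.03G264300, Glyma.19G263300 and Glyma.16G008700, of which the last 2 are named here because their values were seen. All 3 are described as 13S-lipoxygenase 3-1, but so are Glyma.07G039900, Glyma.07G196800 and Glyma.11G197500 (the last 2 named after their values were seen). These had log2 fold changes of -0.18, -0.67 and -0.02 and unadjusted p-values above 0.05 by edgeR. Glyma.11G197500 shares its RefSeq symbol, on chromosome 19, with Glyma.19G263300, so its description may not be its own.

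Transcripts of Glyma.03G264300 were at 22.8, 6.65 and 27.5 CPM in control roots and at 5.09, 5.20 and 3.45 CPM in acid-treated roots. The groups did not overlap, but control replicate 2 was close to the acid-treated libraries. The log2 fold change was -2.05 ± 0.49, a 4.13-fold lower level at pH 4.2. It did not pass edgeR's test (adjusted p = 0.13) and was called by DESeq2 (adjusted p = 0.0043). Without control replicate 2 it was called by edgeR too (log2 fold change -2.45, adjusted p = 0.0065, in a fit that called 3.26% of all genes tested, 1.02% higher and 2.24% lower at pH 4.2), and over the fits without 1 library its adjusted p-value ranged from 0.0065 to 0.42.

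Glyma.19G263300 showed a like order of libraries, with 11.6, 2.47 and 16.2 CPM in control roots and 4.98, 1.38 and 0.890 CPM in acid-treated roots. Here the groups overlapped, since control replicate 2 was below acid replicate 1. Its log2 fold change was -2.06 ± 0.77 (adjusted p = 0.33 by edgeR). Glyma.16G008700 had 29.7, 18.6 and 48.4 CPM in control roots and 23.2, 13.2 and 14.1 CPM in acid-treated roots. In this gene, too, control replicate 2 was the lowest control library, and the log2 fold change of -0.94 ± 0.37 was not called (adjusted p = 0.36).

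The other 13S genes tested had unadjusted p-values above 0.05, among them Glyma.11G130200 with a log2 fold change of -0.97 ± 0.55 (named after its value was seen). The smallest p-value among those higher at pH 4.2 belonged to Glyma.12G054700, described as 13S-lipoxygenase 2-1, with 2.496, 2.25 and 2.39 CPM in control roots and 2.04, 5.31 and 3.005 CPM in acid-treated roots (log2 fold change 0.54 ± 0.42). Its difference came from acid replicate 2 more than from the other acid-treated libraries. Of the 5 genes not tested, 4 reached 1.22 CPM at most, while Glyma.20G054000 reached 3.75 CPM in control replicate 2 and 0.890 CPM at most in the others. Among the 3 lipoxygenases described by a number alone, lipoxygenase-9 (Glyma.07G034800) had a log2 fold change of 0.62 ± 0.31 and was not called (adjusted p = 0.50). Lipoxygenase-2 (Glyma.13G347500) and lipoxygenase L-3 (Glyma.15G026300), which are known from soybean seeds, reached no more than 0.566 and 0.779 CPM in roots.

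AOS commits the lipoxygenase product to the jasmonate route. The genes named AOS1 (Glyma.14G078600) and AOS2 (Glyma.17G246500) by RefSeq had similar levels per length, at 17.3 ± 4.20 and 18.0 ± 8.36 FPKM in control roots. AOS1 was at 26.9, 21.3 and 33.9 CPM in control roots and at 21.7, 21.3 and 21.0 CPM in acid-treated roots. AOS2 was at 40.2, 30.9 and 71.5 CPM in control roots and at 57.3, 29.4 and 29.6 CPM in acid-treated roots. The groups overlapped for both genes, the control libraries of replicate 3 being the highest, and log2 fold changes of -0.36 ± 0.21 and -0.29 ± 0.37 were not called by edgeR (adjusted p = 0.57 and 0.80).

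The third gene, AOS-like Glyma.04G035000, was too low to be tested by edgeR. It had 0.543, 0.107 and 0.937 CPM in control roots and 8.26, 1.06 and 0.334 CPM in acid-treated roots. Thus only acid replicate 1 was well above the control libraries. DESeq2 gave it an adjusted p-value of 0.23.

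AOC makes the natural form of OPDA. The 3 genes differed in direction by value. AOC1 (Glyma.01G086900) was at 11.9, 11.8 and 10.3 CPM in control roots and at 48.9, 27.4 and 14.0 CPM in acid-treated roots. Control libraries were close to each other, all acid-treated libraries were above them, and these spread widely among themselves. The log2 fold change of 1.41 ± 0.40 (2.65-fold) did not pass edgeR's test (adjusted p = 0.20) and was called by DESeq2 (adjusted p = 0.032). Without acid replicate 1 it was 0.87 (adjusted p = 0.37 by edgeR).

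The other AOC genes did not follow AOC1. AOC4 (Glyma.13G047300) had 24.2, 33.9 and 14.3 CPM in control roots and 22.0, 28.8 and 39.3 CPM in acid-treated roots. AOC6 (Glyma.18G280900) had 26.5, 35.7 and 33.4 CPM in control roots and 24.2, 30.7 and 22.1 CPM in acid-treated roots. Both groups of libraries overlapped, and log2 fold changes were 0.32 ± 0.34 and -0.31 ± 0.21. AOC6 had the highest level per length of the 3 genes in control roots, at 27.3 ± 4.38 FPKM, and AOC1 in acid-treated roots, at 31.2 ± 17.6 FPKM, where AOC4 and AOC6 were at 19.4 ± 5.78 and 21.8 ± 4.19 FPKM. These 3 levels at pH 4.2 do not differ beyond their spread.

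OPR3 is the reductase that acts on the OPDA of the jasmonate route. Its 4 genes lie as pairs of neighbouring locus numbers, Glyma.13G109700 with Glyma.13G109800 and Glyma.17G049900 with Glyma.17G050000. Glyma.13G109800 had 0, 0 and 2 counts in control roots and 60, 76 and 25 counts in acid-treated roots, which is 0, 0 and 0.208 CPM against 6.79, 8.07 and 2.78 CPM. All acid-treated libraries were above the limit that 3 counts set, and all control libraries below it. The ratio of the summed counts, each divided by the summed effective library sizes, was 83.2, with a 95% interval of 22.7 to 693 that covers counting error only. By edgeR the log2 fold change was 6.13 ± 0.86 (adjusted p = 0.028), a value that depends on how the fit treats counts of 0, and DESeq2 called it as well. Over the fits without 1 library the log2 fold change stayed between 5.63 and 8.76, while the adjusted p-value ranged from 0.020 to 0.16 and was below 0.05 only without acid replicate 3 (0.040) or control replicate 2 (0.020). It was 0.094 and 0.16 without acid replicates 1 and 2, and 0.080 and 0.062 without control replicates 1 and 3. In 5 of these 6 fits, calls over all genes also fell, from 187 to between 7 and 95.

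Its neighbour Glyma.13G109700 is the OPR3 gene with the highest level, at 33.2 ± 9.91 FPKM in control roots and 23.2 ± 5.24 FPKM in acid-treated roots. Transcripts were at 43.8, 37.3 and 63.7 CPM in control roots and at 43.8, 31.3 and 27.7 CPM in acid-treated roots. The groups overlapped, and the log2 fold change of -0.49 ± 0.27 was not called by edgeR (adjusted p = 0.54). RSEM gave whole counts to both neighbours in all 6 libraries, so no fractional sharing of reads is seen there. At pH 4.2 Glyma.13G109800 reached 4.24 ± 2.02 FPKM, well below its neighbour.

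The members of the other pair also differed widely in level. Glyma.17G050000 was at 24.1, 18.2 and 25.4 CPM in control roots and at 13.7, 15.7 and 11.7 CPM in acid-treated roots. The groups did not overlap, but the log2 fold change of -0.72 ± 0.22 was not called (adjusted p = 0.22 by edgeR). Glyma.17G049900 had 0, 1 and 1 counts in control roots and 3, 2 and 2 counts in acid-treated roots, too few for a difference to be read. Summed over the 4 OPR3 genes, FPKM was 47.7 ± 12.2 at pH 5.8 and 36.3 ± 7.20 at pH 4.2, a difference within the spread of the libraries, in spite of the gain in Glyma.13G109800.

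**Figure D2:**
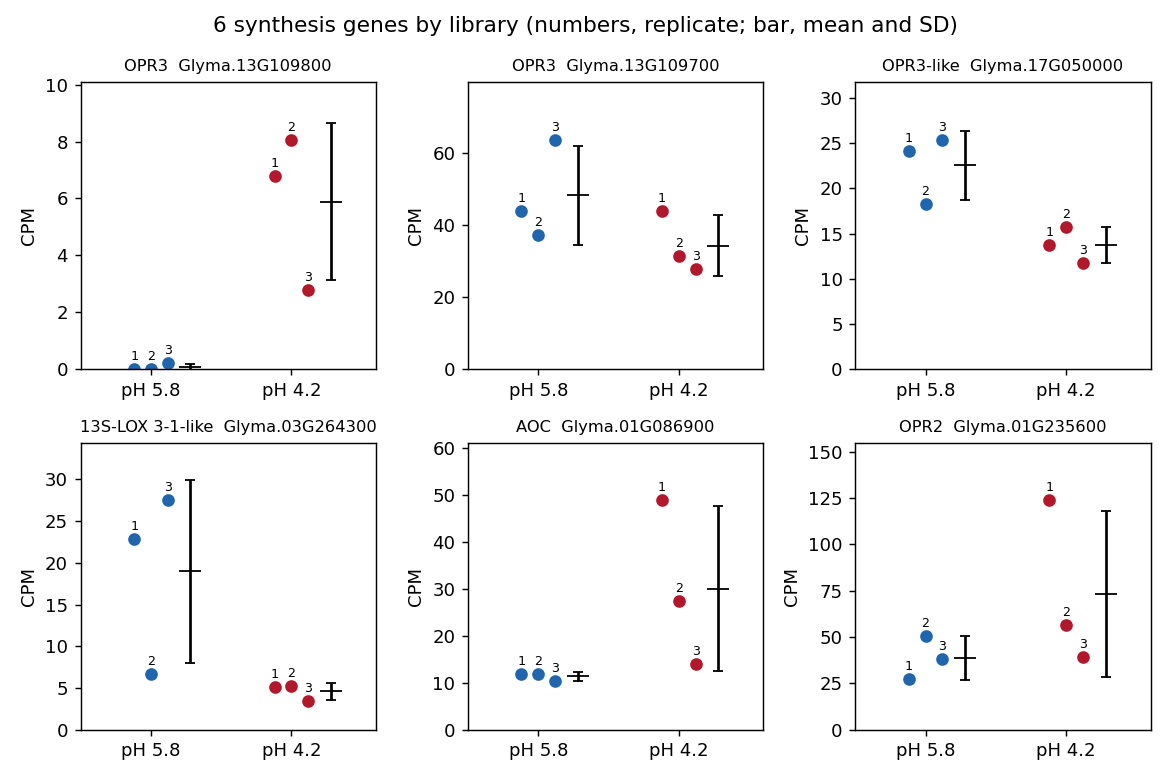
CPM of 6 synthesis genes in each library at pH 5.8 (blue) and pH 4.2 (red), numbered by replicate, with the mean and SD of 3 libraries beside them and each axis starting at 0. Glyma.13G109800 is at 0.208 CPM or less in control roots and at 2.78 CPM or more in acid-treated roots, while AOC Glyma.01G086900 and OPR2 Glyma.01G235600 are highest in acid replicate 1 (48.9 and 123.7 CPM).

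Reductases of the other group of this family, OPR1 and OPR2 in Arabidopsis, act little on the form of OPDA that the jasmonate route makes. OPR2 Glyma.01G235600 was at 27.1, 50.6 and 38.3 CPM in control roots and at 123.7, 56.6 and 39.2 CPM in acid-treated roots. Acid replicate 1 was far above all other libraries, the groups overlapped, and the log2 fold change of 0.92 ± 0.42 was not called (adjusted p = 0.46 by edgeR). OPR2-like Glyma.19G057500 was likewise highest in acid replicate 1, with 54.2 CPM against 25.2 to 35.6 CPM elsewhere (log2 fold change 0.20 ± 0.32).

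Genes described as putative OPR11 were low. Glyma.06G016900 had 4.02, 9.55 and 8.01 CPM in control roots and 2.26, 2.97 and 3.67 CPM in acid-treated roots. These groups did not overlap, and the log2 fold change of -1.27 ± 0.39 (2.42-fold lower) was not called (adjusted p = 0.22 by edgeR). Glyma.11G007600 had a log2 fold change of -0.63 ± 0.46, and Glyma.14G223600 did not exceed 0.637 CPM.

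Among genes of modification and perception, jasmonate O-methyltransferase turns jasmonic acid into its volatile methyl ester. Only 1 of the 4 genes so described, Glyma.18G238800, was tested. It was at 5.43, 1.39 and 11.03 CPM in control roots and at 4.30, 2.87 and 2.003 CPM in acid-treated roots. Control libraries spread widely and enclosed the acid-treated ones, and the log2 fold change was -0.96 ± 0.65 (adjusted p = 0.63 by edgeR). Glyma.09G253900, Glyma.14G072300 and Glyma.17G252700 reached 0.651, 0.107 and 0.109 CPM at most.

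The F-box protein COI1 is the receptor subunit that binds the jasmonate conjugate. All 4 COI1 genes were expressed at similar levels per length, from 22.9 ± 6.38 FPKM (Glyma.14G062100) to 27.6 ± 2.78 FPKM (Glyma.18G030200) in control roots and from 18.2 ± 3.00 FPKM (Glyma.11G227300) to 24.7 ± 4.15 FPKM (Glyma.18G030200) in acid-treated roots, and neighbours in this order did not differ beyond their spread. COI1 Glyma.11G227300 had the smallest p-value of them. It was at 46.7, 42.4 and 56.9 CPM in control roots and at 43.1, 37.2 and 30.4 CPM in acid-treated roots, and its log2 fold change of -0.40 ± 0.21 was not called (adjusted p = 0.53 by edgeR). The other 3 fold changes were -0.26 (Glyma.02G254300), -0.14 (Glyma.14G062100) and -0.14 (Glyma.18G030200). RSEM split reads of Glyma.02G254300 and of Glyma.14G062100 in all 6 libraries, so the level of either is less certain.

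The TIFY genes were considered apart from the enzymes. Types 3, 5, 6, 10 and 11 are JAZ repressors in Arabidopsis, type 4 corresponds to the PEAPOD proteins that limit leaf growth, and type 8 lacks the Jas domain by which JAZ proteins bind COI1. Of 17 genes, 14 were tested and none was called by edgeR or by DESeq2, with 1 at an unadjusted p-value under 0.05 (7.14%, against 11.8% of all genes tested). The smallest adjusted p-value by edgeR was 0.21. Summed FPKM of the 17 genes was 135, 118 and 171 at pH 5.8 and 204, 159 and 123 at pH 4.2, so that the groups overlapped.

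The most abundant repressor was TIFY 6A Glyma.05G235500, at 31.5 ± 2.57 FPKM in control roots and 39.7 ± 9.88 FPKM in acid-treated roots. It was at 42.3, 49.1 and 47.0 CPM in control roots and at 72.9, 61.9 and 43.0 CPM in acid-treated roots. Acid replicates 1 and 2 were above all control libraries and acid replicate 3 was not, and the log2 fold change was 0.36 ± 0.23. TIFY 6B Glyma.09G123600 (log2 fold change 0.03 ± 0.25) and TIFY 6B-like Glyma.09G174200 (0.36 ± 0.57) were not called either.

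TIFY 10 genes spread widely within both treatments. TIFY 10A Glyma.09G071600 was at 18.9, 7.40 and 31.02 CPM in control roots and at 32.7, 14.9 and 9.46 CPM in acid-treated roots. TIFY 10A Glyma.15G179600 was at 21.1, 9.55 and 32.1 CPM in control roots and at 33.8, 18.7 and 16.6 CPM in acid-treated roots. In both genes control replicate 3 and acid replicate 1 were high and control replicate 2 was low, so that the libraries of one pH differed more than the means of the treatments, whose log2 fold changes were -0.01 ± 0.56 and 0.14 ± 0.44.

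Glyma.13G112000, also TIFY 10A-like, had the same order of libraries within each pH in a narrower range, with 13.5, 9.01 and 14.8 CPM in control roots and 20.3, 13.6 and 9.90 CPM in acid-treated roots (log2 fold change 0.23 ± 0.31). TIFY 10B Glyma.01G204400 (-0.68 ± 0.83) and TIFY 10A Glyma.08G264700 (-0.27 ± 0.55) did not exceed 2.81 and 2.71 CPM, and Glyma.04G013800 did not exceed 0.792 CPM. TIFY 11B-like Glyma.07G041400 had 7.16, 5.04 and 9.58 CPM in control roots and 18.1, 9.44 and 3.67 CPM in acid-treated roots, and thus the highest and the lowest library were both acid-treated. Its log2 fold change was 0.52 ± 0.52. TIFY 3B Glyma.13G116100 was low, at 0.858 to 1.46 CPM in control roots and 1.22 to 2.72 CPM in acid-treated roots (0.75 ± 0.47).

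Types 4 and 8, outside the JAZ group, were also tested. TIFY 8-like Glyma.04G071400 was at 30.6, 29.8 and 24.0 CPM in control roots and at 45.3, 41.3 and 42.4 CPM in acid-treated roots. All acid-treated libraries were above all control libraries, with a log2 fold change of 0.61 ± 0.18 (1.53-fold, adjusted p = 0.21 by edgeR). Its counterpart TIFY 8-like Glyma.06G072700 stayed between 17.4 and 19.4 CPM in all 6 libraries (0.02 ± 0.17). The TIFY 4B-like genes Glyma.10G244400 and Glyma.20G150000 had log2 fold changes of 0.02 ± 0.18 and -0.04 ± 0.20. Of the JAZ group, the TIFY 5A-like genes Glyma.05G141200 and Glyma.15G093100 reached 0.208 and 0.340 CPM at most.

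**Figure D3:**
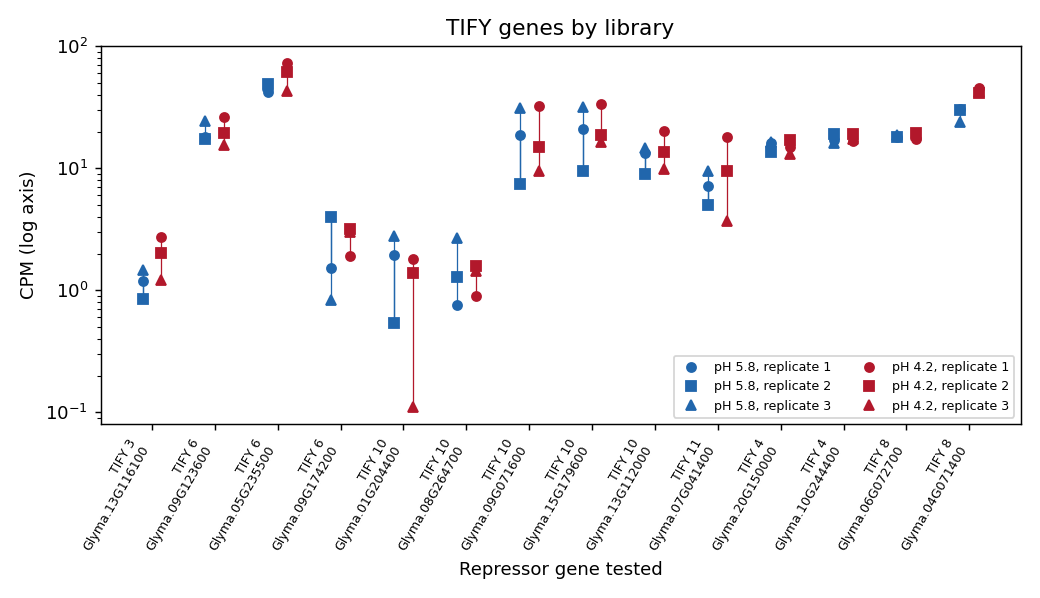
CPM (log axis) of the 14 TIFY genes tested, with 1 symbol for each replicate at pH 5.8 (blue) and pH 4.2 (red). The TIFY 10A gene Glyma.09G071600 runs from 7.40 to 31.02 CPM within control roots alone, while TIFY 8-like Glyma.04G071400 is the only gene whose groups do not overlap.

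Many jasmonate genes had the same libraries highest or lowest within a pH. Among acid-treated libraries, replicate 1 was the highest for 28 of the 55 genes tested (50.9%, against 37.4% of all genes tested) and for 9 of the 14 TIFY genes (64.3%), but for 14 of the 36 synthesis genes (38.9%) and 7 of the 24 lipoxygenases (29.2%). Among control libraries, replicate 3 was the highest for 35 genes (63.6%, against 33.3%) and replicate 2 the lowest for 28 (50.9%, against 34%). Among the 84 neighbouring pathway genes described next, acid replicate 1 was the highest for 48 (57.1%) and control replicate 3 for 47 (56.0%). Control replicate 2 was the lowest for 31 of them (36.9%), near the 34% of all genes. For TIFY types 10 and 11, acid replicate 1 was the highest acid-treated library in 5 of 6 genes and control replicate 3 the highest control library in all 6. The same counts were 2 and 1 of 3 genes for type 6 and 1 and 1 of 1 for type 3. For type 4 they were 0 and 1 of 2, and for type 8 they were 1 and 1 of 2. Summed over types 10 and 11, CPM was 63.6, 33.0 and 93.3 at pH 5.8 and 108, 59.6 and 41.2 at pH 4.2. As genes of a library are not independent, these shares are descriptions, and the part of the single libraries in the results was not tested.

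**Figure D4:**
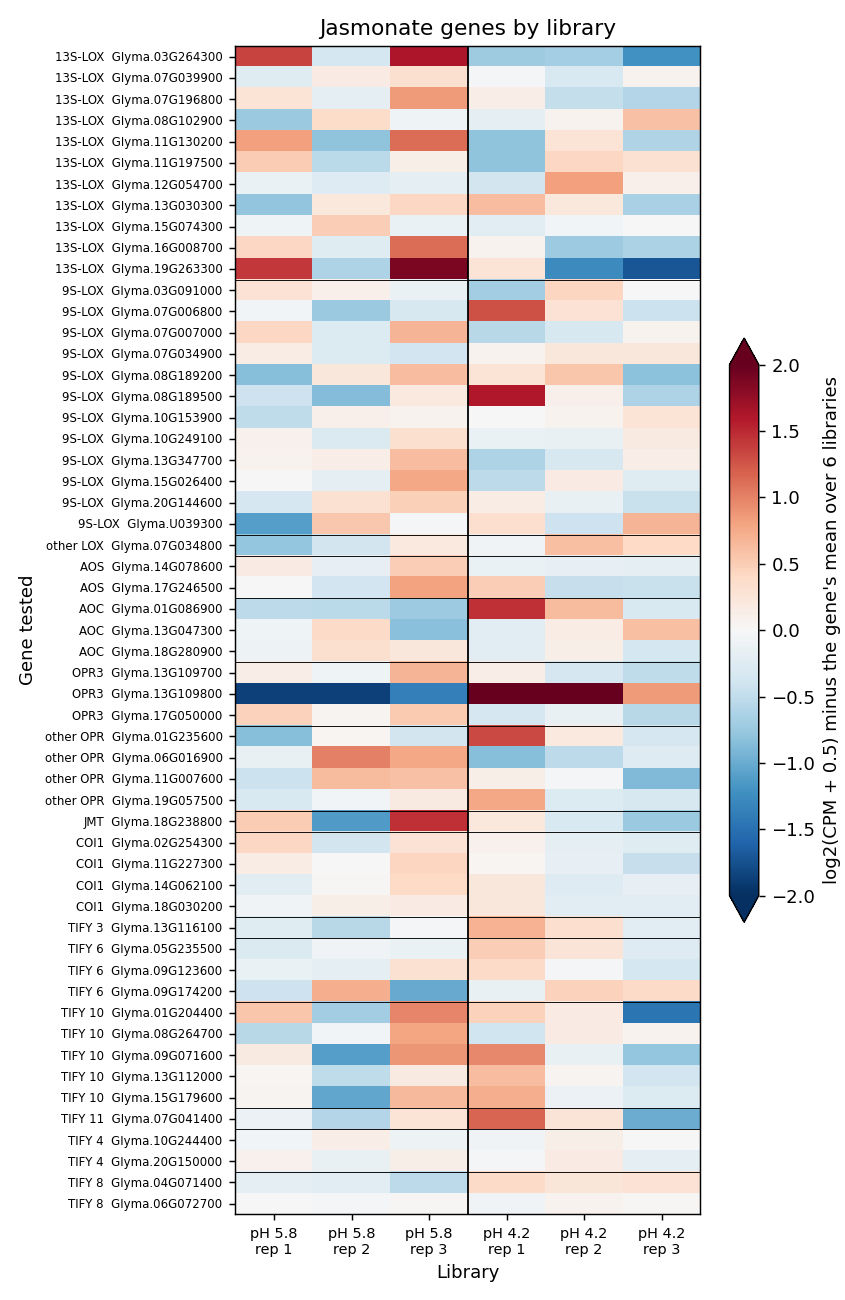
Colour gives log2(CPM + 0.5) of each of the 55 genes tested minus the mean of that gene over the 6 libraries, with genes in rows by enzyme step or TIFY type and libraries in columns. Control replicate 3 is the highest control library for 35 genes and acid replicate 1 the highest acid-treated library for 28 genes. The OPR3 gene Glyma.13G109800 is the row with the sharpest contrast between the treatments.

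Genes next to these in the pathway were taken from a list of 123 genes by description, of which 84 were tested. None was called by edgeR, 9 had an unadjusted p-value under 0.05 (10.7%, against 11.8% of all genes tested), 3 of them higher and 6 lower at pH 4.2. DESeq2 called 6 of the 90 to which it gave an adjusted p-value, 3 in each direction, where 2.77% of all such genes were called. Phospholipases A1, some of which release linolenic acid from plastid lipids, gave negative fold changes for 11 of 12 genes tested (median log2 fold change -0.69). Glyma.11G093400 (A1-Igamma3) had 5.32, 6.97 and 9.58 CPM in control roots and 1.70, 2.33 and 2.003 CPM in acid-treated roots. Glyma.11G036900 (A1-Ibeta2) had 63.9, 71.1 and 93.9 CPM in control roots and 40.8, 29.7 and 36.2 CPM in acid-treated roots. The groups of both did not overlap, log2 fold changes were -1.85 ± 0.34 and -1.10 ± 0.23, and the adjusted p-values were 0.065 and 0.091 by edgeR and 0.0030 and 0.0040 by DESeq2.

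For the steps in peroxisomes that shorten the side chain, fold changes were small. Acyl-CoA oxidases had a median of 0.03 (8 tested), multifunctional proteins of 0.20 (5 tested), thiolases of 0.10 (4 tested) and OPC-8 ligases of 0.31 (2 tested), with none at an unadjusted p-value under 0.05. Downstream of the receptor, MYC2, MYC3 or MYC4 genes were lower by value in 5 of 5 tested (median -0.43), with none at that p-value, and TOPLESS co-repressor genes in 11 of 12 (median -0.23), with 1 at that p-value. Of the cytochromes P450 94, some of which oxidize and so inactivate the active conjugate, 6 of 11 tested had positive fold changes (median 0.08). All letters of this family were listed together. The 1 that DESeq2 called, Glyma.11G185700 (94C1-like), had 11.4, 16.3 and 11.4 CPM in control roots and 29.9, 27.4 and 23.0 CPM in acid-treated roots. Its groups did not overlap, and the log2 fold change of 1.04 ± 0.22 was not called by edgeR (adjusted p = 0.099) but was by DESeq2 (0.011).

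Products that are known to respond to jasmonate did not move one way. All 4 Kunitz inhibitor genes tested had positive fold changes. Glyma.08G341300 (KTI1-like) had 4.23, 3.22 and 1.87 CPM in control roots and 157.6, 40.8 and 5.34 CPM in acid-treated roots, so that the acid-treated libraries spread far more than the control ones (log2 fold change 4.45 ± 1.05, adjusted p = 0.13 by edgeR and 0.0087 by DESeq2). Glyma.16G211800 (elastase inhibitor BrEI-like) had 11.9, 18.0 and 11.03 CPM in control roots and 23.8, 58.4 and 59.4 CPM in acid-treated roots (1.79 ± 0.37, adjusted p = 0.094 by edgeR and 0.00053 by DESeq2). Of 3 vegetative storage protein genes tested, 1 fold change was positive and 2 were negative (median -0.11, highest 0.42). The 1 that DESeq2 called, stem 28 kDa glycoprotein Glyma.08G200200, had 14.4, 23.5 and 28.9 CPM in control roots and 8.49, 12.4 and 5.01 CPM in acid-treated roots (-1.36 ± 0.37, adjusted p = 0.18 by edgeR and 0.039 by DESeq2).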

How the data were processed

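The authors sequenced on a BGISEQ-500 instrument. After filtering, they used HISAT for mapping to Williams82.a2.v1, a soybean genome build, and StringTie to assemble transcripts. Reads were then aligned by Bowtie2 against reference plus predicted coding transcripts. From this RSEM gave the deposited expected counts (not normalized, 1 value for each gene and library) and the deposited FPKM values (per length and library total). Versions are not given in the sources used here. Between 85.7% and 87.2% of counts above 0 were exactly whole as deposited (no tolerance); RSEM gives fractions where it divides reads between genes, and depth limits genes near 3 counts. A gene not listed in a library was set to 0. The labels name a CTAB-PBIOZOL extraction and the paper an RNeasy kit.

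Counts were rounded and tested with edgeR 4.0.16 (R 4.3.3; filterByExpr, TMM, robust quasi-likelihood fit, two-sided, Benjamini-Hochberg adjustment over 33490 genes). Genes were called at 2-fold or more in either direction where the adjusted p was below 0.05. SE is the log2 fold change divided by the root of F. Positive values are higher at pH 4.2. With 3 against 3 libraries no exact permutation p below 0.1 is possible. Alternatives were DESeq2 1.42.0, RLE size factors, no filter, a mean count of at least 50, limma-trend 3.58.1 on log2(FPKM + 0.1) or log2(FPKM + 1), the replicate block and each library left out. The fits were tested on simulated data. The interval of a ratio of counts is exact and conditional on the total.

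The text names members called by edgeR or DESeq2, in each subclass the one with the highest FPKM and the smallest p in each direction, and every member of subclasses of 6 or fewer. Members and lists were chosen with earlier results of these data known. RefSeq (Glycine_max_v4.0) gave symbols for 58 members through protein accessions, and 56 of these lay on the chromosome in the gene's name. Its build differs, so no coordinates are given, and no sequence is shown. Python 3.11.15 with pandas 2.3.3, scipy 1.17.1 and matplotlib 3.10.9 made tables and plots.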

Additional observations from a re-analysis of the deposited data

How the results depend on the processing

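No TIFY gene and no gene of modification and perception was called under any of the settings run. The 10 member genes followed across the settings were chosen by their results with all 6 libraries. They were called, had an unadjusted p-value under 0.05, or had the smallest p-value of a direction in their class. None of them changed direction, which this choice made likely. Members outside this choice did change, such as TIFY 11B-like Glyma.07G041400. Its log2 fold change by edgeR was 0.52, and -0.14 without acid replicate 1. The count of synthesis genes called by edgeR (1) became 3 with DESeq2, 0 with a mean count of at least 50, where Glyma.13G109800 was not tested, and 0 to 2 without 1 library. For neighbouring pathway genes the count (0) became 6 with DESeq2, 1 without a filter on low counts and 0 to 5 without 1 library. Over all genes, 187 calls became 1060 with DESeq2, 323 without a filter and 7 (without acid replicate 2) to 1122 (without control replicate 2) when 1 library was left out. The causes of these shifts were not tested. The median log2 fold change of synthesis genes was -0.06 with DESeq2 and ranged from -0.32 to -0.02 without 1 library, and that of the TIFY genes from -0.04 to 0.37. Adding genes that carry only a KEGG term of the pathway, chosen after seeing the data, left the counts of called synthesis and TIFY genes at 1 and 0.

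With the replicate number as a block, 0 synthesis genes and 61 of all genes were called, and Glyma.13G109800 had a log2 fold change of 6.01, near the 6.13 without it, with an adjusted p-value of 0.087 by edgeR. Libraries with the same number did not deviate together (correlations of -0.13, -0.05 and -0.37), so no pairing by number is seen in these values. With 3 libraries for each pH, these correlations cannot decide whether libraries with the same number were grown or handled together.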

Other observations

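A further 44 genes carried a KEGG term of jasmonate synthesis or of JAZ proteins but none of the words used for the members, and they were looked up after the data were seen. Of these, 25 were tested, none was called by edgeR, and 5 had an unadjusted p-value under 0.05, all lower at pH 4.2 (7.61% of all genes tested were lower at this p-value). Genes with the term for jasmonic acid-amino synthetase, the enzyme that makes the active isoleucine conjugate, had negative fold changes in 4 of 4 tested. The strongest of them by value, Glyma.03G256200 (described as GH3.5), had 68.4, 42.7 and 94.2 CPM in control roots and 42.8, 25.4 and 34.2 CPM in acid-treated roots, with a log2 fold change of -1.005 ± 0.32 (adjusted p = 0.25 by edgeR). The description names indole-3-acetic acid as the substrate, so the term and the description differ.

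Glyma.07G162900, with the term for hydroperoxide dehydratase (another name of AOS), had 274, 290 and 387 CPM in control roots and 185, 160 and 175 CPM in acid-treated roots. These groups did not overlap, and the log2 fold change was -0.87 ± 0.25 (adjusted p = 0.21 by edgeR and 0.014 by DESeq2, below a 2-fold change). Among 7 tested genes with the JAZ term, 4 fold changes were positive and 3 negative. Glyma.17G043700, of no described function, was the only one at an unadjusted p-value under 0.05, with 5.75, 4.18 and 7.91 CPM in control roots and 3.17, 2.65 and 2.67 CPM in acid-treated roots (-1.07 ± 0.33, adjusted p = 0.23 by edgeR).

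Glyma.15G223900, with the term for 12-oxophytodienoate reductase, was too low to be tested by edgeR. It had 2 counts in all control libraries together and 42 in all acid-treated ones. The ratio was 21.7 per summed effective library size, with a 95% interval of 5.64 to 185 for counting error only. DESeq2 called it (adjusted p = 0.044). It was the 1 call among the 30 added genes to which DESeq2 gave an adjusted p-value, where 2.77% of all such genes were called. By its term it is a further reductase gene, beside Glyma.13G109800, that was almost without counts at pH 5.8. Its single libraries are not given here. Summed over the 3 genes with this term alone, CPM was 0, 0.107 and 0.729 in control roots and 3.85, 2.55 and 0.556 in acid-treated roots. In this sum acid replicate 3 was below control replicate 3. The sum includes other genes, so it does not show the order of libraries for Glyma.15G223900. For Glyma.13G109800 alone, all acid-treated libraries were above all control libraries.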
